A study of Mus musculus with 4 samples.

Results

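The genes described here are the heat shock proteins and their DnaJ cochaperones, 72 of the 18781 genes with a named probe set. They were taken by a rule on symbols, chosen with earlier results of these data known. It took every gene named as Hspa, Hspb, Hspd, Hspe, Hsph or Hsp90, every Dnaja, Dnajb or Dnajc gene with a number, and Cryab and Bag3. The rule gave 13 genes of the HSP70 and HSP110 families, 2 of HSP90, 2 of the mitochondrial chaperonin, 8 named as small heat shock proteins, 4 DNAJA, 13 DNAJB and 27 DNAJC genes, and 3 cochaperones caught by name (Bag3, Hspbp1 and Hspbap1). Hspa1b, Hspb1, Hsp90ab1 and Dnajc13 had no named probe set and were not analysed here. For Hsp90ab1 a probe set bearing its gene number was present, but the platform annotation had no entry for it, so it was left unnamed. The HSP90 counts below therefore leave out this cytosolic HSP90 gene.

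Their transcripts were read in whole atria and whole ventricles of mice aged 2 months that were either Mef2a wild type (Mef2a+/+) or Mef2a knockout (Mef2a-/-). Mef2a encodes a MADS-box transcription factor of heart and skeletal muscle. Each genotype gave atria and ventricles, and each of these 4 groups was 1 array carrying pooled RNA of 7 mice of both sexes, so no difference below can be set against a replicate spread and none has a test. How the allele was made, and whether the same animals gave both chambers, is not given in the sources used here.

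Heat shock proteins are molecular chaperones. HSP70 proteins bind exposed hydrophobic stretches of unfolded proteins in a cycle driven by ATP. J proteins (the DnaJ cochaperones) start that cycle through their J domain, and nucleotide exchange factors such as the HSP110 proteins and BAG proteins end it. HSP90 acts later on kinases and receptors, the chaperonin HSP60 with its lid HSP10 folds proteins inside mitochondria, and small heat shock proteins hold aggregating proteins without ATP. In heart muscle the small heat shock proteins and BAG3 are abundant and are known for protecting desmin, filamin and other parts of the contractile apparatus. Many of these genes are targets of heat shock factor 1 (HSF1), which binds repeats of the pentamer nGAAn, called heat shock elements, while chaperones of the endoplasmic reticulum are induced by the unfolded protein response through a separate element.

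The promoters of 6 members are printed because these genes carry the largest ratios or stand for the groups described below, and because they hold letters that match such elements. The sequences are from RefSeq on mouse build GRCm38.p6, written 5′ to 3′ on the strand of the gene and ending 1 base before an annotated transcript start. Capitals mark letters matching heat shock elements in the first 4 and the endoplasmic reticulum stress element in the last 2. In Hspe1 the marked run holds matches to 3 pentamers in a row, and in Hspa1a, Dnaja1 and Hspb6 only a pair. For Hspe1, chr1:55087933-55088147, + strand, the stretch runs back to a start of Hspd1, which is transcribed the other way, so the chaperonin pair shares it. The others are Hspa1a, chr17:34972157-34972406, − strand; Dnaja1, chr4:40722218-40722467, + strand, the first of 3 annotated starts; Hspb6, chr7:30553051-30553300, + strand, the second of 2 starts; Hspa5, chr2:34771840-34772089, + strand; and Dnajc3, chr14:118937682-118937931, + strand.
Hspe1: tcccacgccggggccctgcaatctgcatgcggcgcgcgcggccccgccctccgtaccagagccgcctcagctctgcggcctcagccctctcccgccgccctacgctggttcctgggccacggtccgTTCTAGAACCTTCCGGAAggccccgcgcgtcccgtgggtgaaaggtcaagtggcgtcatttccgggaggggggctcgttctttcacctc
Hspa1a: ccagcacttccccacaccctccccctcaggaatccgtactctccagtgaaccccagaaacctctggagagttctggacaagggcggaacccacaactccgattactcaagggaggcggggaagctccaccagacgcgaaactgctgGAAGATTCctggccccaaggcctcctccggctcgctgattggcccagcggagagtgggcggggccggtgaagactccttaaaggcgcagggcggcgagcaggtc
Dnaja1: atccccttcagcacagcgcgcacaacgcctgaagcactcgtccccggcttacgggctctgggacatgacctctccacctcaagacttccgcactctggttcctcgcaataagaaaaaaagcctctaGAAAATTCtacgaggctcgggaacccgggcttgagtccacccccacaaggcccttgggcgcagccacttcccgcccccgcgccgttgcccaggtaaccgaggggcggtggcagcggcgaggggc
Hspb6: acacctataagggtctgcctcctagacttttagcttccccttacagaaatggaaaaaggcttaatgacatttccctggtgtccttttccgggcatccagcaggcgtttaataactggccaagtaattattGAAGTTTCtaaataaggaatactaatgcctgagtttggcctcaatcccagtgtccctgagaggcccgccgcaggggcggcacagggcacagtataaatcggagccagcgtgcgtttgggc
Hspa5: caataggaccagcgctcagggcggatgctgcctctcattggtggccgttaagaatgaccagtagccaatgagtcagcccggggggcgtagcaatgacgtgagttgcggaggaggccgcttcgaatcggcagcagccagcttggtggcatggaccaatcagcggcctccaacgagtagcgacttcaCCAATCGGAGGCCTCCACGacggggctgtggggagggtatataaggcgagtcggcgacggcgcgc
Dnajc3: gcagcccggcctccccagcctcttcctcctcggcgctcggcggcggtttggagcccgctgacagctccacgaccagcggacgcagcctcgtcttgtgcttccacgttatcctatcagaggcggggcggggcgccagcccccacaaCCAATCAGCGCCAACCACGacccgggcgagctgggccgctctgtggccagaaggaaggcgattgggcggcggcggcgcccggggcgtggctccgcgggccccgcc

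Promoter windows of 300 bases, from 250 before to 50 after a start, were at hand for 58 of the 72 members. The head to head pair of heat shock pentamers, GAANNTTC, lay in a window of 13 of the 58 genes (22.4%), against 9.04% of all 27025 genes with a window. The tail to tail pair, TTCNNGAA, lay in 6 (10.3%), against 9.60% of all genes. These pairs overlap where 3 pentamers follow each other (GAANNTTC, then any 2 bases, then GAA, searched on both strands), which occurred in 4 members (6.90%), Hspd1, Hspe1, Dnajb6 and Hsph1, against 0.662% of all genes, with the first pair of genes sharing 1 stretch. The endoplasmic reticulum stress element, CCAAT and CCACG with 9 bases between them, on either strand, was found in Hspa5, Hsp90b1 and Dnajc3 (5.17%), against 0.137% of all genes. The MEF2 site, searched on both strands by its consensus, was found in 1 member, Hspb3, 12 bases before its start. The share was 1.72% of members and 3.70% of all genes. In Hspb3 it overlaps a match to the TATA box letters, TATAAA, which lay in a window of 15.7% of all genes. All pairs read the same on both strands. A match describes letters in a window and is not evidence of binding, and a window without one says nothing about the factor.

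Values are log2 intensities as deposited, and a gene is called above the floor in a comparison when the brighter of the arrays compared reached 5.71, the median of all values. Of the 72 members, 58 were above the floor on all 4 arrays and 13 on none. The remaining one was Hspa1a, which was below it only on the wild type ventricles array, so that Hspa1a entered each comparison with that array through the other, brighter one. The 13 below the floor on every array were Dnajb3, Dnajb6, Dnajb7, Dnajb8, Dnajb13, Dnajc5b, Dnajc5g, Dnajc6, Dnajc22, Hspa2, Hspb9, Hspb11 and Hspbap1. Dnajb6, which encodes a J protein of the Z-disc mutated in a limb girdle muscular dystrophy, was among them at 5.28 and 5.50 in wild type and knockout atria and 5.28 and 5.16 in the ventricles. The other 59 members form the base of the counts below.

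The knockout atria array stood apart from the rest, with an interquartile range of 2.97 against 3.18 to 3.21 on the other arrays. The part of this in ratios with that array was not tested, and signs were also read under 3 other scalings (median centring, quantile normalization and centring on a lowess trend). The Mef2a signal was 10.32 in wild type and 10.41 in knockout-labelled atria, and 10.28 and 10.34 in ventricles, so it did not check the genotype labels; which bases were deleted is not given in the sources used here. Skeletal muscle markers summed lower on both knockout arrays, with linear intensities of 1145 and 305 in wild type and knockout atria and 1697 and 445 in ventricles. All those above the floor were negative, 5 in atria and 4 in ventricles, and Myl1 was lowest in both, at −3.77 and −3.62. Below the floor in ventricles, Tnnt3 was at 0.18 and Myh4 at −0.04. The part of these markers in the members' ratios was not tested. The chamber labels were borne out: in both genotypes all 5 atrial cardiomyocyte markers passed 2-fold in favour of atria, and all 4 ventricular ones in favour of ventricles. Heart muscle is mixed with other cells in these samples, and less RNA per cell cannot be told apart from fewer cells of a type.

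**Figure D1:**
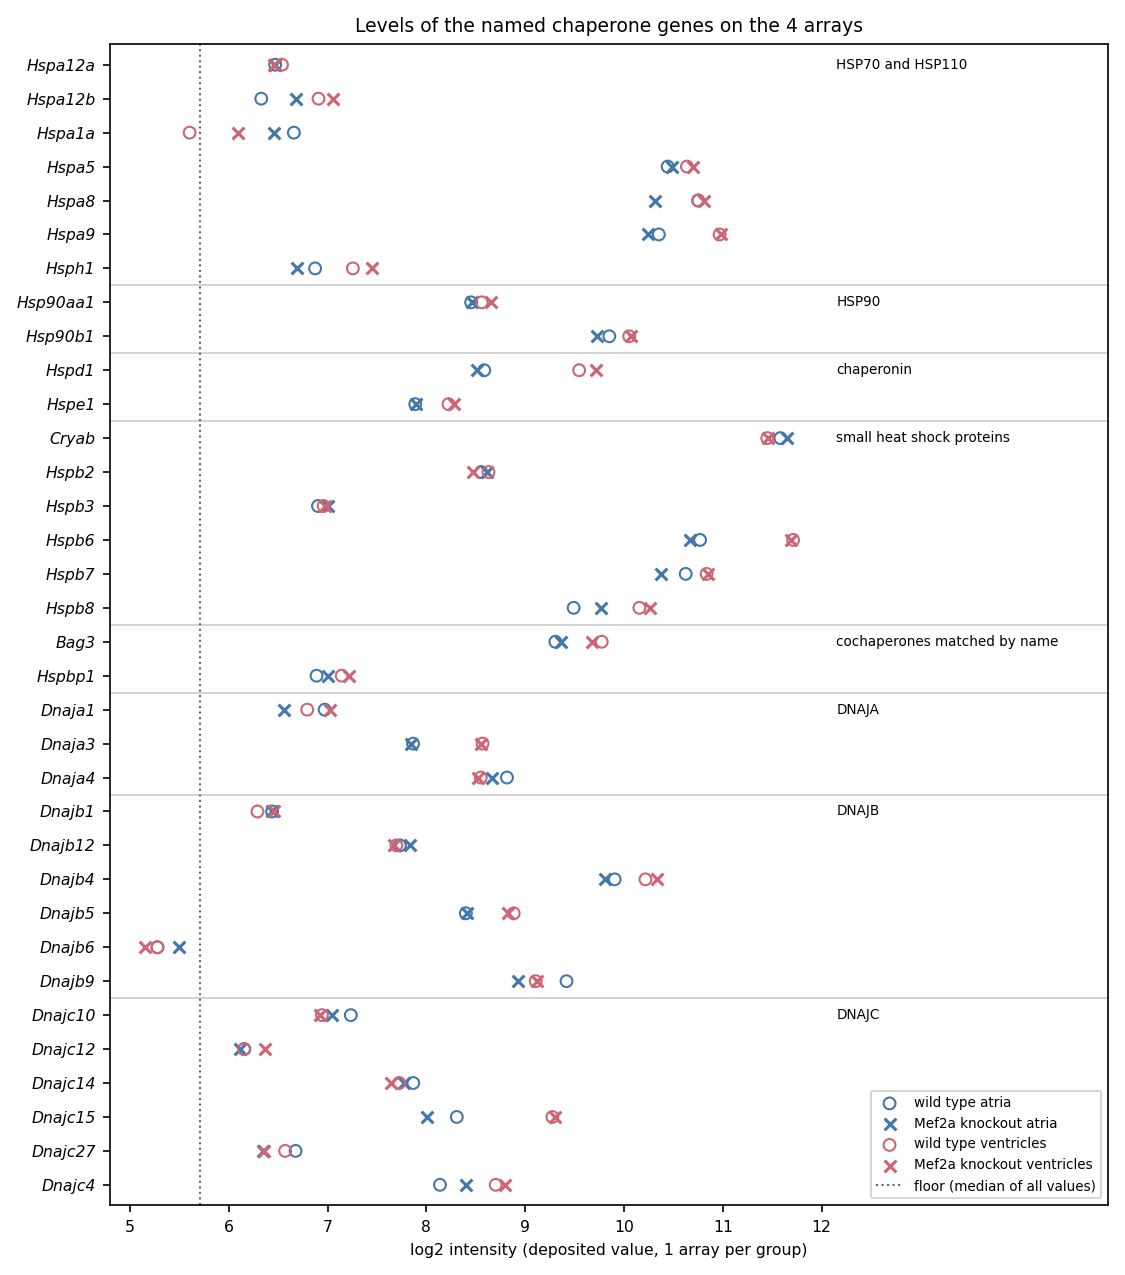
Levels of the 34 named members on the 4 arrays, as deposited log2 intensities on the horizontal axis, with atria in blue, ventricles in red, wild type as circles and Mef2a knockout as crosses. The dotted line marks the floor at 5.71; Dnajb6 lies below it on all 4 arrays and Hspa1a on the wild type ventricles array, and levels are comparable within a gene, not between genes.

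Knockout against wild type atria asked whether chaperone transcripts differ between the labelled genotypes in the upper chambers. None of the 59 members reached 1.5-fold in either direction. Over all 10050 genes above the floor the share past 1.5-fold was 3.03%, so a count of 0 among 59 is near the background. The members' log2 ratios ran from −0.49 for Dnajb9 to 0.36 for Hspa12b, with a median of −0.08, beside −0.03 over all genes. Of the members 38 were negative and 21 positive. Negative ratios made up 64.4% of members and 56.9% of all genes. The members' median size was 0.12, beside 0.14 over all genes.

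The lowest atrial ratios belonged to Dnajb9, Hspa8 and Dnaja1. Dnajb9, a J protein of the endoplasmic reticulum that regulates the stress sensor IRE1, read 9.42 in wild type and 8.92 in knockout atria, and 9.11 and 9.12 in the ventricles. Hspa8, the constitutive cytosolic HSP70, read 10.75 and 10.31 in atria and 10.75 and 10.81 in ventricles, a ratio of −0.44 in atria. Dnaja1, a main J partner of cytosolic HSP70 whose promoter is printed above, read 6.97 and 6.56 in atria and 6.79 and 7.02 in ventricles, a ratio of −0.41. For Hspa8 and Dnaja1 the knockout atria array was the lowest of the 4 and the knockout ventricles array the highest. Dnajc27, which carries a small GTPase domain beside its J domain, followed at −0.33 (6.68 and 6.34), and Dnajc15, a J protein of the mitochondrial import motor, at −0.30. At the other end, Hspa12b, a distant HSP70 relative known from endothelium, read 6.33 in wild type and 6.68 in knockout atria, and 6.91 and 7.05 in ventricles. All 5 endothelial markers were above the floor, 2 with positive and 3 with negative atrial ratios and a median of −0.05; their summed linear intensity was 4043 in wild type and 4205 in knockout atria, and their part in the Hspa12b value was not tested.

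By family, the atrial ratio was negative for all 4 DNAJA genes (median −0.15; 3 of 4 under 1 or more other scalings), 9 of 12 HSP70 and HSP110 genes (−0.11), 16 of 23 DNAJC genes (−0.08) and 5 of 8 DNAJB genes (−0.05). Among all genes above the floor in this comparison 56.9% were negative. Under the other scalings these family medians stayed below 0, but that of DNAJB came to −0.0017, with 4 of 8 negative, and that of DNAJC to −0.02. Beside Hspa8, the HSP70 and HSP110 family held Hsph1, which recharges HSP70 with ATP, at −0.18, the mitochondrial HSP70 gene Hspa9 at −0.11 and Hspa5, which encodes BiP, the HSP70 of the endoplasmic reticulum, at 0.05. Small heat shock proteins had 4 positive and 2 negative ratios and a median of 0.06 that stayed positive under every scaling run. Hspb8, the partner of BAG3 in selective autophagy, was highest of these at 0.27 (9.49 and 9.76), and Hspb7, the cardiac filamin-binding member, lowest at −0.25 (10.62 and 10.37). Cryab, the alpha B-crystallin of lens and heart that binds desmin, stood at 0.06, its divergent neighbour Hspb2 at 0.06, Hspb3 at 0.10 and Hspb6 at −0.10. Bag3 and Hspbp1, both exchange factors of HSP70, stood at 0.06 and 0.12. Hsp90aa1, the inducible cytosolic HSP90, was at 0.01 and Hspe1 at 0.01, with signs that turned under other scalings, while Hsp90b1, the HSP90 of the endoplasmic reticulum, was at −0.12 and Hspd1 at −0.08.

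Members can also be sorted by where their proteins work and by their known regulator. These lists were drawn up with the values in view and describe them only. Of 8 members listed as in or facing the lumen of the endoplasmic reticulum, 7 had negative atrial ratios. The list's median of −0.20 held its sign under every scaling run. The 7 were Dnajb9, Dnajc1 (−0.26), Dnajb11 (−0.21), Hspa13 (−0.21), Dnajc10 (−0.19), the kinase inhibitor gene Dnajc3 (−0.19) and Hsp90b1, with Hspa5 the exception. Dnajc16, also a J protein of the endoplasmic reticulum, was left off the list and stood at 0.15. Of all genes above the floor 56.9% were negative. The 10 mitochondrial members had a median of −0.06 and the 10 HSF1 targets −0.04, and quantile normalization turned both signs. In atria all 6 fibroblast markers were also negative, with a median of −0.34 and 2 past 1.5-fold, and their summed intensity was 6357 in wild type and 4950 in knockout atria. The part of fibroblasts in these ratios was not tested.

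In the lower chambers the same question was put to knockout and wild type ventricles. Again none of the 59 members reached 1.5-fold; the share over 9712 genes was 1.20%, so this count too is near the background. Ratios ran from −0.22 for Dnajc27 to 0.49 for Hspa1a, with a median of 0.01, beside 0.00 over all genes. Of the members 34 were positive and 25 negative. Positive ratios made up 57.6% of members and 51.2% of all genes. The members' median size was 0.07, beside 0.08 over all genes. Without the floor the highest member was Dnajc6, which encodes the clathrin uncoating protein auxilin 1, at 0.57, from 3.62 to 4.18, below the floor on each array.

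Hspa1a, the classical stress-inducible HSP70, had the largest ventricular ratio above the floor, 5.60 in wild type and 6.09 in knockout ventricles, or 1.40-fold, and read 6.66 and 6.46 in atria. The wild type ventricles array was thus the lowest of the 4 for this gene. Hspa1b encodes a nearly identical protein from a neighbouring gene, and whether probes told the copies apart is not known here. Dnaja1 followed at 0.23, then Dnajc12 at 0.22 (6.15 and 6.37), a J protein known as a partner of the aromatic amino acid hydroxylases, and Hspa4l at 0.21, an HSP110 relative that was also positive in atria at 0.15. Dnajb1, the J partner most strongly induced with HSP70 on heating, was at 0.16 in ventricles (6.29 and 6.45) and at −0.00 in atria.

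In the HSP70 and HSP110 family 11 of 12 ventricular ratios were positive, with a median of 0.10 that stayed positive under every scaling run; 51.2% of all genes were positive. The exception was Hspa12a at −0.08. Hsph1 was at 0.19 (7.26 and 7.45), Hspa8 and Hspa5 at 0.06 and Hspa9 at 0.02. Both HSP90 genes analysed were positive, Hsp90aa1 at 0.09 and Hsp90b1 at 0.02. So were both chaperonin genes, Hspd1 at 0.17 and Hspe1 at 0.05. J proteins showed no common direction: medians were −0.00 for DNAJA, −0.01 for DNAJB and −0.02 for DNAJC, with signs that turned under other scalings. The small heat shock proteins ran from −0.16 for Hspb2 (8.63 and 8.47) to 0.11 for Hspb8 (10.16 and 10.27). Cryab was at 0.01, Hspb7 at 0.01, Hspb3 at 0.01 and Hspb6 at −0.02. Bag3 was at −0.09. Of the 10 HSF1 targets 9 were positive (8 at the fewest under other scalings), with a median of 0.13 and Bag3 the exception. The list holds Hspa1a, Hspa8, Hsph1, Hsp90aa1, Dnaja1, Dnajb1, Cryab, Bag3 and the chaperonin pair, whose genes share a promoter. These genes are also in the families above, so the 2 sets of counts are not separate.

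**Figure D2:**
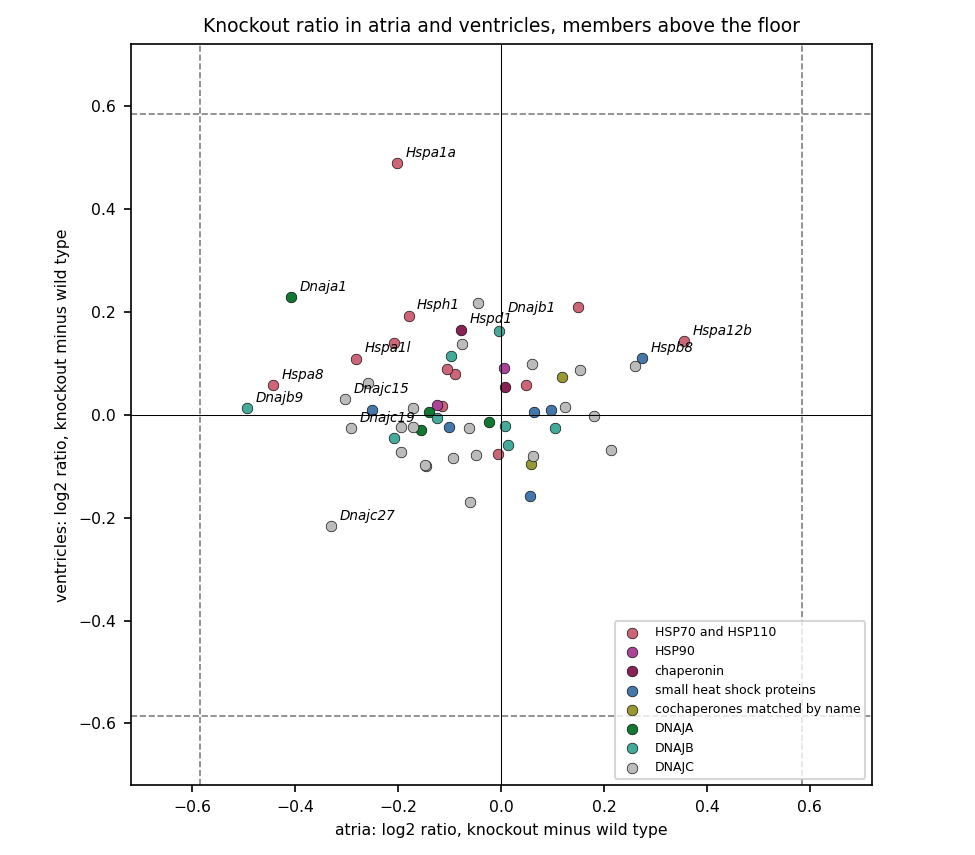
Log2 ratio of knockout to wild type in atria (horizontal) and ventricles (vertical) for the 59 members above the floor, 1 point per gene, coloured by family. Dashed lines mark 1.5-fold; every point lies inside them, with Hspa1a (−0.20, 0.49) and Dnaja1 (−0.41, 0.23) in the upper left quadrant.

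Side by side, the chambers differed most for Hspa1a and Dnaja1. The comparisons share no array, and the difference between them had no test. Hspa1a was at −0.20 in atria and 0.49 in ventricles, a difference of 0.69, and Dnaja1 at −0.41 and 0.23, a difference of 0.64. These 2 of 59 members differed by at least 1.5-fold between chambers, beside 2.51% of the 9436 genes above the floor in both. The signs of both genes held under every scaling run. In all, 21 of the 59 members were negative in atria and positive in ventricles (35.6%), beside 25.7% of all genes. A further 17 were negative in both (28.8%, beside 32.1% of all genes) and 13 positive in both (22.0%, beside 25.6%). The other 8 were positive in atria alone (13.6%, beside 16.4%). Among the 10 HSF1 targets the first pattern held for 6, Hspa1a, Hspa8, Hsph1, Dnaja1, Dnajb1 and Hspd1, of which Dnajb1 changed sign in atria under other scalings. The counts of sign patterns were made on the deposited values alone. Over the deposited and other scalings, 33 to 42 members were negative in atria and 30 to 43 positive in ventricles.

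**Figure D3:**
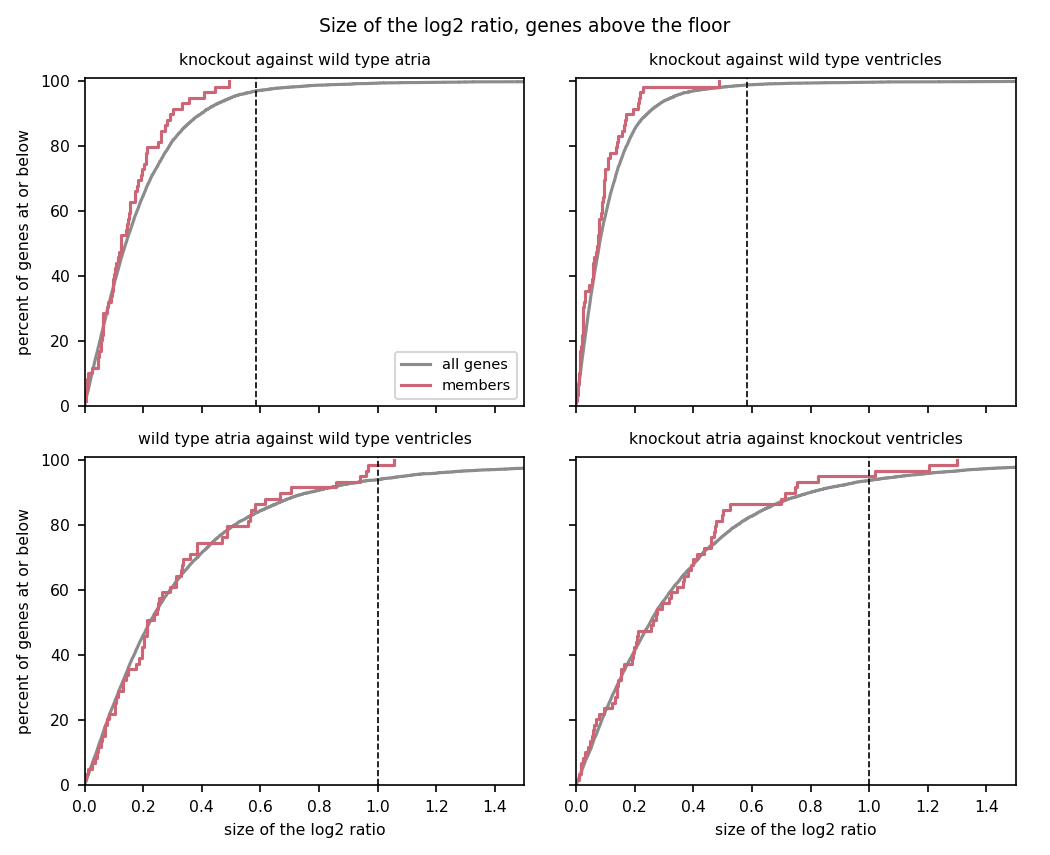
Cumulative share of genes by the size of their log2 ratio in each of the 4 comparisons, for members (red) and all genes (grey) above the floor, with the fold that counts as a difference dashed. In both knockout comparisons the red curve reaches 100% before the dashed line, and in the chamber comparisons the curves run close together, with median sizes of 0.21 and 0.22 in wild type.

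The next question was how the chambers differ in wild type, read as atria over ventricles. All 10 mitochondrial chaperone genes had lower values in atria (9 of 10 under 1 or more other scalings), where 51.5% of all genes were negative. The 33 members above the floor on none of the lists above had a median of −0.18. What is left outside the lists depends on them too, and they were drawn up with the values in view. Past 2-fold was 1 of 59 members, Hspa1a, higher in atria at 1.06 (2.08-fold), and none was past it lower; over 10034 genes 6.10% passed in either direction, 3.89% higher and 2.21% lower. Hspa1a was below the floor in wild type ventricles. At 1.5-fold 7 members were lower in atria, beside 7.82% of all genes. The members had 39 negative and 20 positive ratios and a median of −0.18, beside −0.01 over all genes. At a log2 size of 0.5 or more there were 10 members lower in atria and 2 higher, beside 10.4% and 10.3% of all genes.

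The mitochondrial list had a median of −0.59, and 6 of its genes were at −0.5 or beyond. Dnajc15 was lowest, at 8.31 in wild type atria and 9.28 in wild type ventricles, a ratio of −0.97. Hspd1, which encodes HSP60, followed at 8.59 and 9.55, or −0.96, and its lid gene Hspe1 read 7.89 and 8.22, or −0.34. Both genes of the pair thus had the same direction, with a larger size for Hspd1, and the part of their shared promoter was not tested. Dnajc28 was at −0.86 (6.61 and 7.46), Dnaja3, the J partner of HSPA9 in the matrix, at −0.70 (7.86 and 8.57) and Hspa9 itself at −0.61 (10.35 and 10.97). Dnajc4 stood at −0.56 (8.14 and 8.70), Dnajc11, a part of the membrane complex that shapes cristae, at −0.49, Dnajc30 at −0.24 and the import motor gene Dnajc19 at −0.01. Dnajc19 was thus even between chambers, while its paralogue Dnajc15 was 1.96-fold higher in ventricles.

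The endoplasmic reticulum list leaned the other way, with 6 of 8 positive and a median of 0.11, where 48.4% of all genes were positive. Hspa13 was highest at 0.56 (7.46 and 6.90), followed by Dnajb9 at 0.31 and Dnajc10, a disulfide reductase, at 0.29. Hspa5 and Hsp90b1 were at −0.19 and −0.20, and Dnajc16, left off the list, was at −0.36. Fibroblast markers were higher in wild type atria for all 6 genes, with a median of 0.70 and a summed intensity of 6357 against 4129 in ventricles. Cardiomyocyte markers were at 28193 and 30524, with all 6 negative and a median of −0.08. The part of the cell mixture in the chamber ratios was not tested.

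Of the 6 small heat shock protein genes 5 were negative, with a median of −0.14, where 51.5% of all genes were negative. Hspb6, also called HSP20, a target of cyclic AMP-dependent kinase, was the lowest at 10.77 and 11.71, or −0.94. Hspb8 was at −0.67 (9.49 and 10.16), Hspb7 at −0.21, Hspb2 at −0.08 and Hspb3 at −0.06, and Cryab alone was positive, at 0.13 (11.58 and 11.45). Bag3, the cochaperone that links HSPB8 to HSP70, was at −0.47 (9.31 and 9.77) and Hspbp1 at −0.25. Among cytosolic J proteins, Dnajb5 was at −0.48 (8.40 and 8.88), Dnajb4 at −0.31 (9.91 and 10.22), Dnajb1 at 0.15, Dnaja1 at 0.18 and Dnaja4 at 0.26 (8.82 and 8.55). The median of the HSP70 and HSP110 family was −0.03, with a sign that turned under another scaling. Hspa12b was at −0.58, Hsph1 at −0.38 and Hspa8 at 0.00, and Hsp90aa1 was at −0.11. Even genes included Dnajb12, a membrane J protein of the endoplasmic reticulum, at 0.04 and Dnajc12 at 0.00, and Dnajc14 stood at 0.14.

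**Figure D4:**
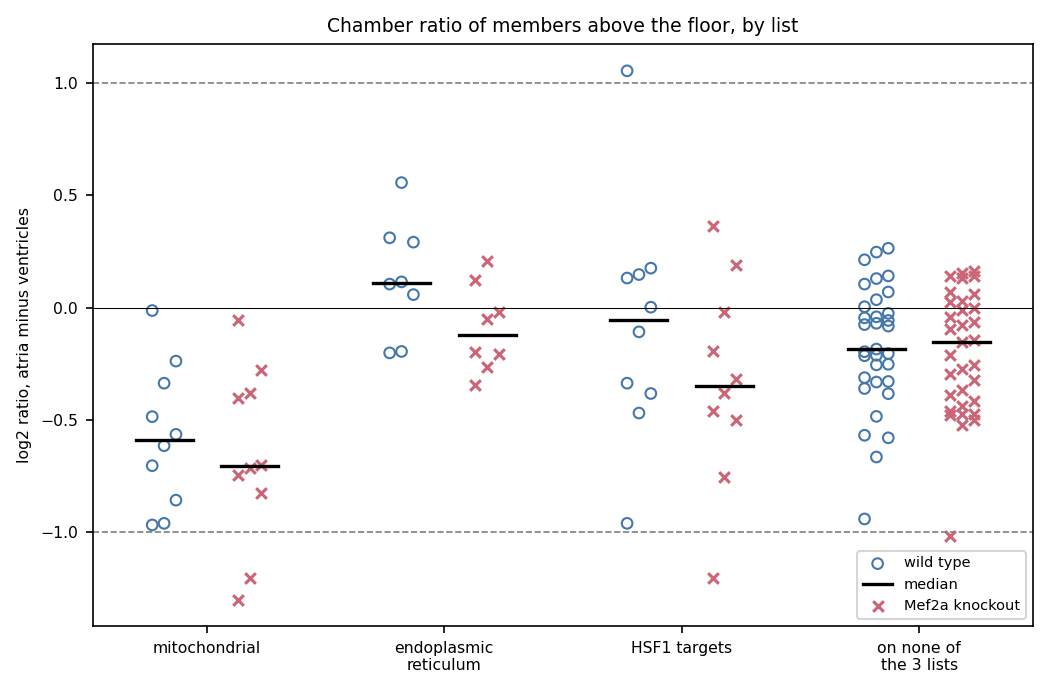
Log2 ratio of atria to ventricles for members above the floor, in wild type (blue circles) and knockout (red crosses), split into the mitochondrial, endoplasmic reticulum and HSF1 lists and the members on none of them, with Hspd1 and Hspe1 on both the mitochondrial and the HSF1 list. Black bars are medians and dashed lines mark 2-fold; the mitochondrial medians are −0.59 and −0.71, and all 10 mitochondrial members lie below 0 in both genotypes (9 of 10 under 1 or more other scalings).

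The knockout pair of chambers was read the same way. Past 2-fold were 3 of 59 members, all lower in atria, and none higher; over 10120 genes 6.30% passed, 3.46% higher and 2.85% lower. The 3 were Dnajc15 at −1.30 (9.31 in ventricles), Hspd1 at −1.20 (8.51 and 9.71) and Hspb6 at −1.02 (10.67 and 11.69). In wild type these genes were at −0.97, −0.96 and −0.94, just short of 2-fold, so crossing the threshold in 1 genotype does not show a difference between genotypes. Hspb6 fell short of 2-fold again under quantile normalization (−0.89) and lowess centring (−0.85). The mitochondrial list had a median of −0.71, and Hspa9 was at −0.75 and Dnaja3 at −0.71. Over all members 45 ratios were negative and 14 positive, where 55.4% of all genes were negative. The members' median was −0.26, beside −0.05 for all genes. At 1.5-fold 8 members were lower, beside 10.1% of all genes, and at a log2 size of 0.5 there were 10 lower and 0 higher, beside 13.6% and 9.83%. The split of all genes past 2-fold, 350 higher and 288 lower, became 305 and 377 under median centring.

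Some members stood differently between chambers in the knockout pair. Hspa1a was at 0.36 in place of 1.06, Hsph1 at −0.75 in place of −0.38, Hspa8 at −0.50 in place of 0.00 and Dnaja1 at −0.46 in place of 0.18. These are the same 4 values per gene as in the knockout comparisons, arranged the other way. Dnajb4 was at −0.52, Dnajb9 at −0.20 and Hspa13 at 0.21. The endoplasmic reticulum list had a median of −0.12, with 6 of 8 negative, where 55.4% of all genes were negative. This median was −0.0082 under quantile normalization and −0.0055 under lowess centring, and at the fewest 4 of 8 were negative. Hspb8 (−0.50), Bag3 (−0.32) and Dnajb5 (−0.41) kept their wild type direction under every scaling run.

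Other genes of protein folding were read from a list of 72 genes outside the symbol rule, of which 70 had a named probe set and 67 were above the floor. None passed the fold in any of the 4 comparisons, beside 3.03% and 1.20% of all genes in the atrial and ventricular knockout comparisons and 6.10% and 6.30% in the wild type and knockout chamber comparisons. In knockout atria 46 of the 67 were negative, with a median of −0.06, where 56.9% of all genes were negative; over the other scalings the fewest negative were 35 and the median nearest 0 was −0.0042. In knockout ventricles 47 were positive (46 at the fewest), with a median of 0.04, where 51.2% of all genes were positive. The list's lowest atrial ratios were Sugt1, an HSP90 cochaperone, at −0.48 and Chordc1, another, at −0.40, and its highest ventricular ones the stress-induced factor gene Ddit3 at 0.38 and Cct6a at 0.31. The cytosolic chaperonin TRiC and its delivery complex prefoldin, which fold actin and tubulin, gave 13 genes above the floor. Of these, 11 were negative in knockout atria (median −0.22; 9 at the fewest under other scalings) and all 13 positive in knockout ventricles (median 0.08), with the same sign of both medians under every scaling run. The largest size was −0.33, for Vbp1 in atria. The factor genes Hsf2 and Hsf4 were at −0.40 and 0.05 in atria and −0.16 and 0.07 in ventricles, and Hsf1 had no named probe set and was not analysed here.

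Between wild type chambers the values of the list ran from −0.70 to 0.49. Fkbp4, an immunophilin of steroid receptor complexes, was at −0.70, and Smyd1, a methyltransferase that helps fold myosin, at −0.66. The mitochondrial HSP90 gene Trap1 was at −0.54 and the exchange factor genes of HSPA9, Grpel1 and Grpel2, at −0.53 and −0.44. The disulfide isomerase genes P4hb, Pdia4, Pdia3 and Pdia6 were at 0.49, 0.45, 0.22 and 0.22, higher in atria. In the knockout pair Fkbp4 was at −0.92 and Trap1 at −0.87. All 5 other BAG family genes were negative in wild type, from −0.52 for Bag2 to −0.10 for Bag6, like Bag3. Of all genes above the floor in that comparison 51.5% were negative.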

How the data were processed

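The authors deposited 1 table of log2 intensities for 21212 probe sets on 4 arrays, made with RMA and the affy package per the submitters' processing notes; tool versions, array design and probe set definitions are not given in the sources used here. Per the labels' protocols, Trizol RNA of 7 mice was pooled per array and labelled with biotin. The platform annotation gave 1 symbol for 18786 probe sets, several for 6 and none for 2420. Symbols were updated through RefSeq (GRCm38.p6), 18775 by gene number, 6 by accession and 5 kept; the brightest probe set per symbol left 18781 genes.

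Each ratio is a difference of 2 log2 values (Python 3.11.15, pandas 2.3.3). A gene counted as different at 1.5-fold between genotypes or 2-fold between chambers when the brighter array reached the floor. The counting was tested on simulated data. Alternatives were no floor, a floor at 7.27 (the 75th percentile), other folds and 3 scalings: median centring, quantile normalization and lowess centring (fraction 0.3, statsmodels 0.14.6). The number of arrays limits the precision. Named members were 24 fixed symbols where measured, members past the fold, and the highest and lowest of each family per comparison; others are list members or were named after their values were seen. Members and lists were chosen with earlier results of these data known.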

Additional observations from a re-analysis of the deposited data

Results flagged for a closer look

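Hspa1a and Dnaja1 had ratios of opposite sign in the chambers, apart by at least 1.5-fold: knockout minus wild type was higher in ventricles than in atria by 0.69 on the log2 scale for Hspa1a and by 0.64 for Dnaja1. Hspa1a was below the floor in wild type ventricles (5.60 against 5.71) and entered the ventricular comparison through the brighter knockout array, so its difference rests on a value near background. With 1 pooled array per group the difference was not tested, and 2.51% of all genes above the floor in both chambers differed by as much in either direction.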

How the results depend on the processing

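No paired analysis was possible because each group is 1 array and the labels give no replicate numbers that pair arrays, and no replicate could be left out. An additive fit with chamber as a block, which leaves 1 residual degree of freedom and takes the difference between chambers as error, was not run. The counts of 0 members past the fold in both knockout comparisons held under every alternative run, including a 2-fold threshold, and the medians over all members kept their sign in all 4 comparisons. In the wild type chamber comparison, Hspa1a dropped out with the floor at the 75th percentile, leaving 0 members higher, 1.5-fold gave 7 members lower in atria, and the members' median was −0.064 without a floor. In the knockout chamber comparison, 1.5-fold gave 8 lower and the floor at the 75th percentile a median of −0.36. The scalings were planned for the members, while the lists below, and their medians under each scaling, were added after seeing the data. Quantile normalization turned the atrial knockout median to 0.011 for the HSF1 list and to 0.0057 for the mitochondrial list, and moved the knockout chamber median of the endoplasmic reticulum list to −0.0082. Lowess centring turned the ventricular knockout median of the endoplasmic reticulum list to −0.0014 and the wild type chamber median of the HSF1 list to 0.018. It moved the knockout chamber medians to −0.24 (HSF1), −0.0055 (endoplasmic reticulum), −0.60 (mitochondrial) and −0.31 (cytosolic chaperonin and prefoldin). The cause was not tested. Of the 72 members, the sign of the ratio was the same under all scalings for 62 in the atrial and 58 in the ventricular knockout comparison, and for 66 and 58 in the wild type and knockout chamber comparisons. Signal near background limits Hspa1a and the 13 members below the floor.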
